A study of Mus musculus with 4 samples.

Results

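Bone morphogenetic protein (BMP) signalling was described here through 10 genes: the ligands Bmp2, Bmp4 and Bmp7, the type I receptors Bmpr1a and Bmpr1b, the secreted antagonist Nog (noggin), and the response genes Msx1, Msx2, Id1 and Id3. They are 10 of the 22380 protein-coding genes of the mouse annotation GENCODE M1. The genes were chosen by name and not by a measured value, although earlier results of these data were known. ATAC-seq, in which the transposase Tn5 cuts and tags open chromatin, was run on fixed single-cell suspensions from forelimb and hindlimb of mouse embryos at stage E11.5. All embryos were of the strain labelled c57bl6.J X 129S6.sv. A stop cassette insertion, called 3xpA in the titles, was carried by 2 libraries, and 2 libraries were wild type. The position of the insertion and the number of altered alleles are not given in the sources used here. The series concerns the long non-coding RNA Maenli and the limb gene En1.

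BMP ligands are secreted dimers. They bind type I and type II receptor kinases, which phosphorylate Smad proteins, and these enter the nucleus with Smad4 and bind DNA. Id and Msx genes are classical direct responders, and Nog binds the ligands outside the cell. In the limb bud, BMPs act in the apical ectodermal ridge, in the ventral ectoderm upstream of En1, in digit patterning and in the death of interdigital cells.

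Each library has its own list of peak summits of 1 bp on the mm9 build, each with a score that behaves as −log10 of a q-value. Scores were turned into percentiles within their own list, where 0 is the weakest summit and 100 the strongest. The stop cassette lists held 79083 and 107827 summits and the wild-type lists 51701 and 68471 (replicates 1 and 2). Both stop cassette lists were therefore longer than both wild-type lists. Below, 4 values in a row are for stop cassette replicates 1 and 2 and then wild-type replicates 1 and 2. The peak names inside the wild-type lists mark both libraries as subdivisions of replicate 1, whereas the titles number them 1 and 2 and the names in the stop cassette lists use 1 and 2. Whether the libraries of a genotype came from separate embryos is not stated, so p-values measure only the spread between these libraries. With 2 libraries against 2, the smallest exact permutation p is 0.333.

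Signal from whole limbs cannot tell apart a site open in few cells from a site weakly open in many. Among limb mesenchyme markers, 7 of 10 had a summit within 1 kb of a start in all 4 lists (Prrx1, Twist1, Hand2, Pitx1, Msx1, Hoxd13 and Hoxa13), and Tbx5 had none in any list. Of 6 surface ectoderm markers, Epcam and Cdh1 had one in all lists, whereas Krt5, Krt14 and Grhl3 had none and Trp63 had one in a single list. A start summit in all lists was also found for 1 of 4 endothelial markers (Kdr) and 2 of 4 blood markers (Gata1 and Hbb-b1). Of 5 muscle markers, 0 had one in all lists and 3 had one in some lists, and 0 of 6 liver genes had one in any list. Among all protein-coding genes, 57.5% had one in all lists.

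Summits held by every list marked elements close to Id1, Id3, Bmp4, Nog and Msx2 that lie more than 1 kb from their own starts. The upstream region of Nog is an exception, as it straddles that limit. The first 4 sequences below are shown because they carry the composite letters discussed after them. The others come from the regions of highest mean percentile of Nog and Bmp4 and from that of Msx2 away from any start. The upstream region of Nog is shown as well. Each is the reference sequence of 201 bases (mm9, NCBIM37) around the median summit position, read 5′ to 3′ on the strand of the gene. Capitals mark GGCGCC, the letters CAGAC on either strand (GTCTG where it lies on the other strand), and the letters of the composite.
Id1, 1052 bp upstream, plus strand, chr2:152560835-152561035: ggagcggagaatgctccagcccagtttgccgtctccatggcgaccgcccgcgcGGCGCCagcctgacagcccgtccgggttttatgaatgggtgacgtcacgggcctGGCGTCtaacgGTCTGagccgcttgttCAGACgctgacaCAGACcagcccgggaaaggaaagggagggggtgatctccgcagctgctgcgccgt
Id1, 3257 bp downstream, plus strand, chr2:152565144-152565344: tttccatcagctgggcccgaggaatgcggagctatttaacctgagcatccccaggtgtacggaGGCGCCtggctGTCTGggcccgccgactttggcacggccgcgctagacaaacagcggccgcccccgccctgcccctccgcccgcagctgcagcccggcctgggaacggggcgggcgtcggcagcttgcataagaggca
Id3, 3027 bp upstream, plus strand, chr4:135696285-135696485: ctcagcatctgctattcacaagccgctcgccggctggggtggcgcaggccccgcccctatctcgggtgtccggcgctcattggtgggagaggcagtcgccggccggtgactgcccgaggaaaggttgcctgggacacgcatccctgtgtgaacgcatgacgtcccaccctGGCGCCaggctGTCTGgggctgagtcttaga
Id3, 4500 bp downstream, plus strand, chr4:135703812-135704012: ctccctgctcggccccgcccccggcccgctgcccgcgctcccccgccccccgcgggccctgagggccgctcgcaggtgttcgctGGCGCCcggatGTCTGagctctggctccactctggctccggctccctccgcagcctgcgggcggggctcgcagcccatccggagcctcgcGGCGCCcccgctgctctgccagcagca
Nog, 4103 bp downstream, minus strand, chr11:89159670-89159870: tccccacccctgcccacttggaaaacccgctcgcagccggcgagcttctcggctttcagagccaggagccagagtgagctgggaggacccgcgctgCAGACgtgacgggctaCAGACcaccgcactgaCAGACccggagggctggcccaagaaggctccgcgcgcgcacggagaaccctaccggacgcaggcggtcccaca
Nog, 1029 bp upstream, minus strand, chr11:89164802-89165002: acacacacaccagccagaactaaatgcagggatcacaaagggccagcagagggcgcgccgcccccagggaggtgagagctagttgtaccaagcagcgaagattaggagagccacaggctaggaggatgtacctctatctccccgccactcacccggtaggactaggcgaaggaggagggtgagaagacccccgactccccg
Bmp4, 3240 bp downstream, minus strand, chr14:47007004-47007204: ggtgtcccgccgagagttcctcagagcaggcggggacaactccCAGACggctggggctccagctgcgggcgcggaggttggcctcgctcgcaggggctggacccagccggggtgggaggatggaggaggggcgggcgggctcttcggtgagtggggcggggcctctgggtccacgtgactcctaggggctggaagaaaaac
Msx2, 2931 bp upstream, minus strand, chr13:53571274-53571474: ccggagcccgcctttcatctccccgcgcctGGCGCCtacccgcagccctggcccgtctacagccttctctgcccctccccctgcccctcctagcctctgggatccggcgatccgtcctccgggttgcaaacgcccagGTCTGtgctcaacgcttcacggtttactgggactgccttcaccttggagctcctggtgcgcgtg
Distances are from the gene's outermost annotated start to the centre of the window. Those of Id1, Id3, the downstream window of Nog and that of Msx2 are intergenic. The Bmp4 window lies in an intron of Bmp4, near the start of the transcript Gm15222, and the upstream window of Nog lies in an intron of Gm2018.

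The composite searched was GGCGCC, 5 further bases and GTCT, on both strands. As background, elements of this form are bound by BMP-activated Smads and Smad4 and are known from DNA upstream of Id1, so a match near Id genes is not independent evidence for the motif. The exact form occurred in 3 of the 69 windows around the 10 genes that all lists held (4.35%) and in 17 of 23863 such windows over the genome (0.0712%). The 3 were the downstream window of Id1 (GGCGCCTGGCTGTCT) and both windows of Id3 (GGCGCCAGGCTGTCT upstream and GGCGCCCGGATGTCT downstream). The upstream window of Id1 held GGCGTCTAACGGTCT, which differs from the exact form at one base. A search with GGCGNC in place of GGCGCC, made after the exact form had been counted, found 4 of 69 windows (5.80%) and 61 genome-wide (0.256%). Among the genome-wide matches outside the 10 genes, 1 exact window lay within 100 kb of Id2, and 1 further window of the looser form lay within 100 kb of Smad6, an inhibitory Smad. Together, 41 other BMP pathway genes had 148 windows in all lists (0.620% of 23863).

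GGCGCC stood in 11 of 69 windows (15.9%, genome 14.0%), CAGAC in 27 (39.1%, genome 38.1%), and CCAAT in 19 (27.5%, genome 27.8%). TAATTG, a homeodomain core of the kind bound by Msx proteins, was found in 3 (4.35%, genome 4.87%), near Bmp2, Msx1 and Id1. The palindrome GTCTAGAC was found in 1 of 69 windows (1.45%, genome 0.163%), 29.9 kb upstream of Id1. Overlaps between these letters were counted under each motif, and the composite in its exact form always contains GGCGCC. In the 200 bases upstream of the annotated starts, the composite was in 0 of 10 genes (genome 0.0536% exact and 0.183% looser). The median GC content was 61.2% in the windows of the 10 genes and 60.2% over all windows.

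Of the 10 genes, 8 had a summit within 1 kb of an annotated start in all 4 lists, against 57.5% of protein-coding genes. The exceptions were Bmp4, with a start summit in 2 lists, and Nog, with one in 3. The strongest start summit of the 10 genes had a median percentile of 68.7, 82.3, 66.0 and 77.4 (over the genes with one in that list). Over the 12860 protein-coding genes with a start summit in all lists the medians were 90.9, 93.7, 86.0 and 89.6. Over all protein-coding genes with a start summit in the given list, as counted for the 10 genes, the medians were 90.0, 92.6, 85.5 and 88.6. The median of the 10 genes was below both of these medians in each list.

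**Figure D1:**
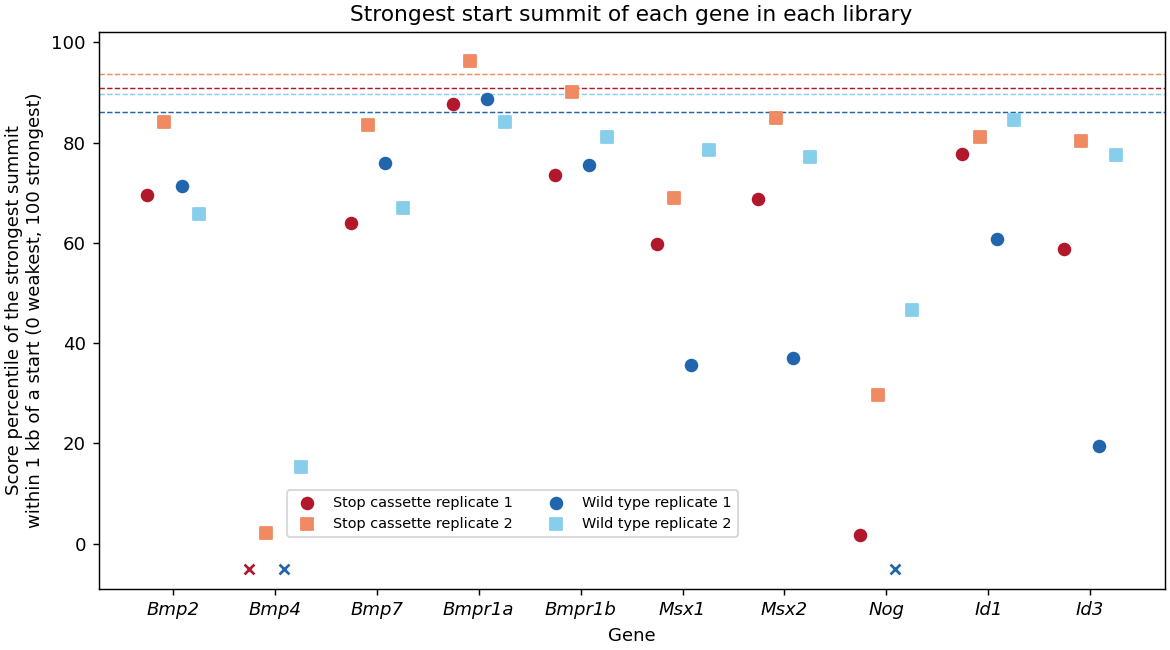
Percentile of the strongest summit within 1 kb of a start (vertical axis, 0 to 100) for each gene and library. Crosses at the bottom mark a list with no start summit, and dashed lines give the median of 12860 protein-coding genes in each library's colour. Bmpr1a lies between 84.0 and 96.2, highest in every library except wild-type replicate 2, where Id1 lies slightly higher. Bmp4 and Nog lie lowest.

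Among the ligands, Bmp2 (ENSMUSG00000027358.6, chr2:133377895-133388621, plus strand) had 3, 3, 3 and 4 start summits. Bmp2 is made in the ridge and the posterior mesenchyme of the limb bud. Its strongest start summit stood at percentiles 69.5, 84.2, 71.3 and 65.7. A second region of Bmp2 in all lists lay 14.4 kb downstream of the start, outside the gene (chr2:133391656-133393247), at 63.0, 91.4, 68.1 and 63.7. In both Bmp2 regions stop cassette replicate 2 was highest, and the genotypes overlapped.

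Bmp7 (ENSMUSG00000008999.7, chr2:172693513-172765822, minus strand) had 2 start summits in every list. Its strongest stood at 64.0, 83.4, 75.9 and 67.0, and the 4 positions fell within 85 bp. The genotypes overlapped at this start too. The strongest region within 100 kb of Bmp7 belonged to the start of Rae1 (92.7, 96.7, 96.4 and 94.2), and the strongest away from any start lay 97.9 kb upstream (chr2:172863444-172864267; 84.9, 74.7, 80.6 and 71.9).

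Bmp4 (ENSMUSG00000021835.8, chr14:47003195-47010344, minus strand) differed from the other ligands in where its summits lay. Its starts carried no summit in either replicate 1 list and one in each replicate 2 list, at percentiles 2.09 (stop cassette) and 15.3 (wild type). Both start summits were near the bottom of their lists. The intronic region whose sequence is given above (chr14:47006851-47007867) stood at 79.2, 78.2, 75.5 and 81.1, a narrow range in the lists as deposited. With every list cut to 51701 summits by score the range was wider, at 68.2, 54.6, 75.5 and 74.9. A region 10026 bp downstream at Gm15217 was also in all lists (61.4, 55.8, 23.9 and 63.6), as was one 46.1 kb upstream at Gm15221 (54.1, 76.9, 39.7 and 55.1). None of the regions of Bmp4 in all lists lay away from an annotated start, although the starts concerned were those of transcripts other than Bmp4.

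Bmpr1a (ENSMUSG00000021796.8, chr14:35223920-35316527, minus strand), the receptor expressed across most embryonic tissues, had the highest start percentile of the 10 genes in 3 of the 4 lists. In wild-type replicate 2, Id1 stood slightly higher. Its strongest start summit stood at 87.8, 96.2, 88.7 and 84.0. Both stop cassette values lay within or above the wild-type range, so the groups overlapped. An intronic region of the neighbour Ldb3, 46.2 kb upstream of Bmpr1a (chr14:35361514-35363083), stood at 80.5, 89.7, 72.0 and 84.3. The strongest region of its neighbourhood was shared by the starts of Fam35a and Glud1 (96.3, 95.0, 95.8 and 88.4).

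Bmpr1b (ENSMUSG00000052430.8, chr3:141500100-141832389, minus strand), the receptor linked to cartilage condensation, had start summits at 73.5, 90.0, 75.5 and 81.1. The strongest summits lay within 90 bp of each other. Its strongest region away from starts was intergenic, 69.4 kb upstream (chr3:141900625-141902219; 67.1, 87.7, 71.1 and 81.3). At both places stop cassette replicate 1 was lowest and stop cassette replicate 2 highest.

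Nog (ENSMUSG00000048616.3, chr11:89161952-89163873, minus strand) had 1, 6, 0 and 2 start summits, and the strongest stood at 1.74, 29.6, none and 46.7. These positions were spread over 1091 bp, the widest spread of the 10 genes. The downstream region (chr11:89159460-89160055) stood at 12.7, 69.4, 76.1 and 75.1, above the strongest Nog start summit in each list that had one. Its window holds CAGAC at 3 places. The upstream region (chr11:89164615-89165168) stood at 46.6, 63.1, 75.2 and 24.4. It straddles the limit of 1 kb, so that its summit counted as a start summit in wild-type replicate 2. In the downstream region stop cassette replicate 1 was far below the other libraries and stop cassette replicate 2 was below both wild-type libraries. With every list cut to 51701 summits by score, the downstream region was absent from stop cassette replicate 1. The upstream region was then absent from wild-type replicate 2.

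Msx1 (ENSMUSG00000048450.9, chr5:38211724-38215822, minus strand), a homeobox gene of the distal limb mesenchyme and a BMP target, had exactly 1 start summit in each list. It stood at 59.7, 68.8, 35.6 and 78.5, within 107 bp. The strongest Msx1 region away from starts lay 93.4 kb upstream (chr5:38308809-38310012; 43.7, 78.4, 57.1 and 58.3).

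Msx2 (ENSMUSG00000021469.7, chr13:53562250-53568443, minus strand), its relative in ridge and mesenchyme, likewise had 1 start summit in each list. The percentiles were 68.7, 85.0, 37.1 and 77.1, within 63 bp, the smallest spread of the genes with a start summit in all lists. The strongest region within 100 kb of Msx2 belonged to the start of Sptlc1 (chr13:53472248-53473334; 88.5, 91.3, 46.6 and 78.7). The upstream region of Msx2 (chr13:53570850-53571737) stood at 47.2, 73.8, 26.2 and 64.0. At the starts of both Msx genes and in both of these regions wild-type replicate 1 was the lowest library.

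Id1 (ENSMUSG00000042745.9, chr2:152561987-152563146, plus strand) encodes an inhibitor of basic helix-loop-helix factors. Its start summit stood at 77.8, 81.1, 60.7 and 84.6. The region around its upstream sequence (chr2:152560381-152561235) stood at 79.8, 70.0, 53.8 and 75.5, and the downstream region (chr2:152564667-152565549) at 57.1, 72.4, 79.4 and 56.9. Wild-type replicate 1 was lowest at the start and upstream but highest downstream. The strongest region within 100 kb of Id1 belonged to the start of Bcl2l1 (chr2:152656147-152657819; 99.2, 99.7, 97.0 and 96.5), and the strongest away from any start lay in a UTR of H13, 28.4 kb upstream (chr2:152533258-152533976; 85.2, 93.3, 81.1 and 86.1). Both ranked above the start of Id1 in every library.

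Id3 (ENSMUSG00000007872.3, chr4:135699412-135701670, plus strand) encodes a related inhibitor. Its start summit stood at 58.8, 80.4, 19.5 and 77.6, within 72 bp. The downstream region (chr4:135703495-135704177) stood at 85.8, 86.6, 82.1 and 92.1, above the start in every library. The upstream region (chr4:135696096-135696935) stood at 79.9, 78.3, 77.2 and 80.9. In the lists as deposited, both flanking regions of Id3 thus varied little between libraries, while the start varied widely. With every list cut to 51701 summits by score, the downstream region stood at 78.3, 72.1, 82.1 and 89.5. The start then stood at 36.9, 59.0, 19.5 and 70.3, so the order of start and downstream region was kept in each library. The upstream region then stood at 69.2, 54.8, 77.2 and 74.7, a wider range than in the lists as deposited. The strongest region within 100 kb of Id3 belonged to the start of Asap3 (chr4:135761844-135762810; 93.1, 92.7, 91.3 and 89.1).

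**Figure D2:**
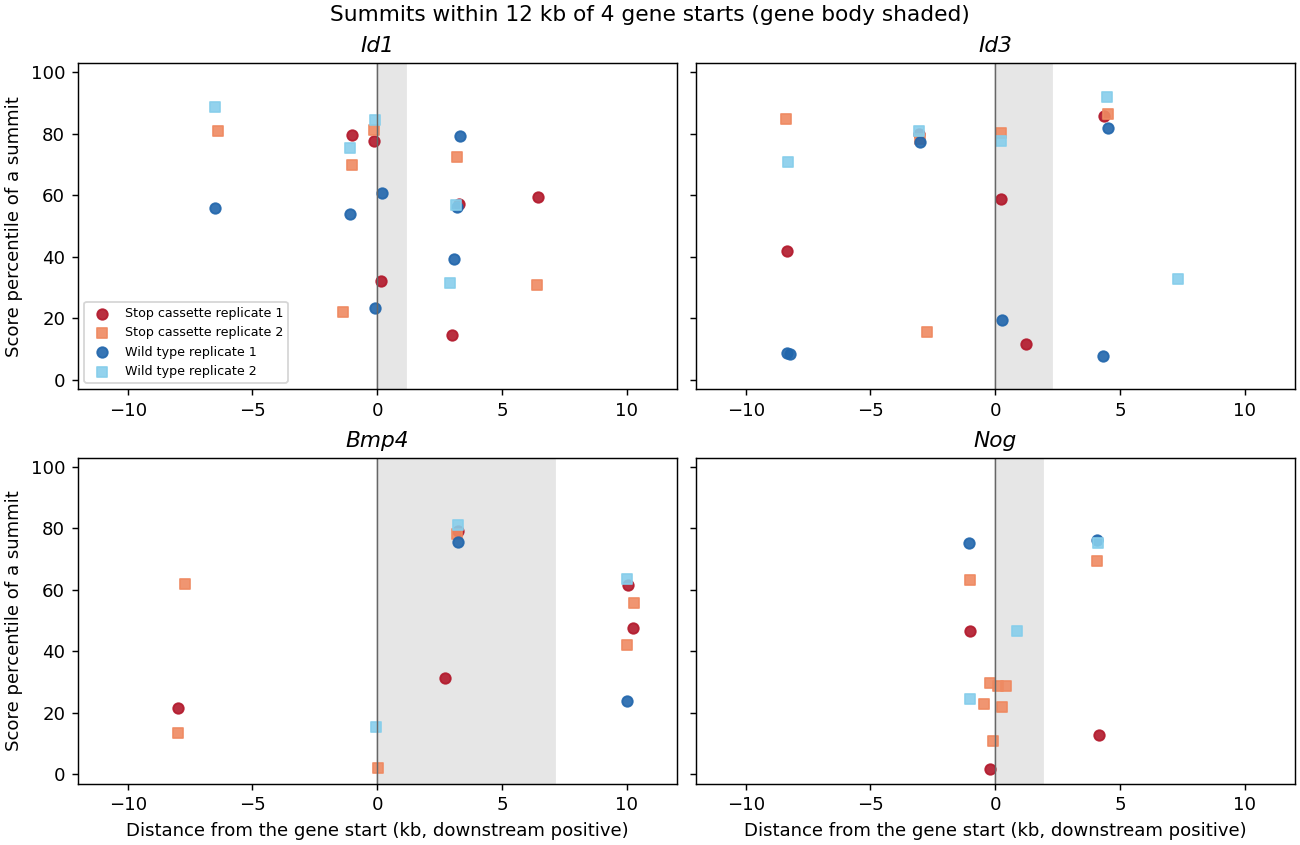
Summits within 12 kb of the starts of Id1, Id3, Bmp4 and Nog (distance in kb, downstream positive) against their percentile, with the gene body shaded. In Id3 the strongest summit of each library near 4.5 kb lies above its start summits (wild-type replicate 1 has a second, low one there), and in Bmp4 the strongest summits near 3.2 kb lie between 75.5 and 81.1 while the start holds 2 low points.

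For 0 of the 8 genes with a start summit in all lists did both stop cassette libraries lie above, or both below, the wild-type pair. Genome-wide, 41.2% of 12860 genes were higher in both stop cassette lists and 4.34% were lower. The number of start summits summed over the 10 genes was 19, 26, 18 and 19. This gave 22.5 ± 4.95 for stop cassette and 18.5 ± 0.707 for wild type (SD, n = 2 each), a difference of 4 (exact permutation test, two-sided, p = 0.667). At equal list length the sums were 12, 13, 18 and 15, a difference of -4 (exact permutation p = 0.333). No single gene of the 10 had more start summits in both stop cassette lists than in both wild-type lists, against 13.1% of protein-coding genes.

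Within 100 kb of the 10 gene bodies lay 194, 261, 135 and 162 summits, or 227.5 ± 47.4 against 148.5 ± 19.1 (SD, n = 2 each). The ratio of 1.53 (exact permutation p = 0.333) was close to the ratio of the list lengths, 1.56. As a share of the list these summits were 0.245% (95% Wilson interval 0.213 to 0.282), 0.242% (0.214 to 0.273), 0.261% (0.221 to 0.309) and 0.237% (0.203 to 0.276). These intervals cover counting error alone, and all 4 overlapped. The difference in mean share was -0.00517 percentage points (exact permutation p = 1). At equal list length the sums were 120, 125, 135 and 121, a difference of -5.5 (exact permutation p = 0.667).

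By gene, 7 of 10 had more locus summits in both stop cassette lists than in both wild-type lists, against 56.4% of protein-coding genes. These were Bmp4 (8, 14, 5 and 7), Bmp7 (29, 40, 19 and 25), Bmpr1a (22, 28, 16 and 17), Bmpr1b (28, 40, 24 and 27), Nog (6, 15, 4 and 4), Id1 (44, 37, 26 and 24) and Id3 (25, 24, 16 and 22). The genotypes overlapped or tied at Bmp2 (13, 23, 8 and 14), Msx1 (9, 21, 7 and 11) and Msx2 (10, 19, 10 and 11). None of the 10 had fewer in both stop cassette lists (0.563% of protein-coding genes did). For the 7 genes the exact permutation p was 0.333, the smallest possible, and 0.585 after Benjamini-Hochberg adjustment over 22380 genes. At equal list length 1 of 10 remained, Id3 (17, 17, 16 and 16), against 14.2% of protein-coding genes higher and 10.4% lower.

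Locus counts of the cell type markers were also higher in both stop cassette lists, for 4 of 4 blood markers, 3 of 4 endothelial, 3 of 6 surface ectoderm, 2 of 5 muscle, 2 of 6 liver and 2 of 10 limb mesenchyme markers, and lower for 0 of the 35, beside 56.4% and 0.563% of protein-coding genes. Hba-a1 had 41, 37, 23 and 25 summits around it, and Grhl3 had 25, 26, 3 and 7. The start percentile was higher in both stop cassette lists for 2 blood markers, Hbb-b1 (92.2, 86.7, 72.8 and 20.7) and Gata1 (74.5, 56.4, 10.4 and 26.0), and for the endothelial marker Kdr (82.2, 90.3, 70.2 and 81.7), beside 41.2% of protein-coding genes with a start summit in all lists. It was lower in both for the ectoderm marker Epcam (72.0, 74.9, 75.2 and 80.6), beside 4.34%. Start summits summed to 3, 3, 2 and 3 over the blood list, with none for Hba-a1 and Ptprc, and to 4, 4, 3 and 3 over the endothelial list, with none for Pecam1 and Cdh5. The part of these cell types in the locus counts of the 10 genes was not tested.

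**Figure D3:**
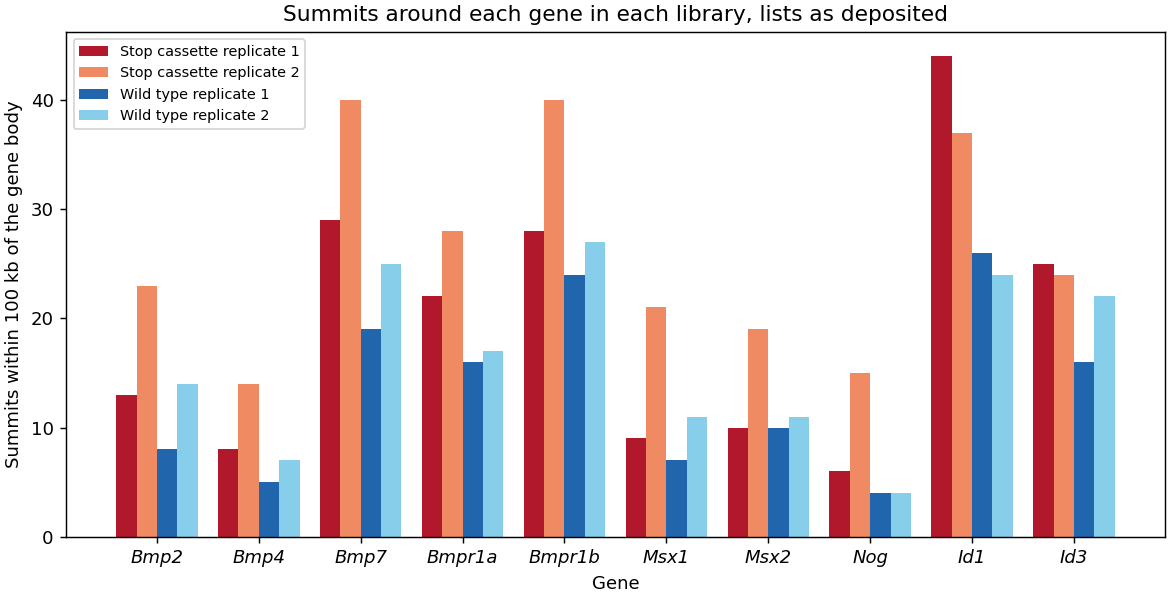
Number of summits within 100 kb of each gene body (bars from 0) in each library, with lists as deposited. Stop cassette replicate 2 has the tallest bar for 8 of 10 genes, and for Id1 and Id3 stop cassette replicate 1 has it, with 44 and 25 summits.

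Merging summits extended by 250 bp over the lists gave 187 regions around the 10 genes. All 4 lists held 69 (36.9%, against 32.0% of 74669 regions genome-wide), and both stop cassette lists but no wild-type list held 23 (12.3%, against 10% genome-wide, 7483 of 74669). Held by both wild-type lists alone were 0 regions (genome 0.313%), and by stop cassette replicate 2 alone 28 (15.0%, genome 22.1%). Regions away from any annotated start made up 147 of 187 (78.6%, genome 75.2%), and 42 of the 69 in all lists (60.9%, genome 44.6%). The median percentile of the regions in all lists was 67.5, against 80.3 genome-wide. Id1 had the most regions in all lists (13 of 30), followed by Bmpr1b (12 of 31), Bmp7 (9 of 33), Id3 (8 of 21), Bmpr1a (7 of 16), Bmp2 (5 of 12), Msx1 (5 of 14), Msx2 (4 of 13), Bmp4 (3 of 9) and Nog (3 of 8). These counts are not corrected for the length searched, which ran from 201 kb for Id1 to 532 kb for Bmpr1b. They also include elements of neighbouring genes, and several of those of Id1 lay at starts of, or inside, H13 and Bcl2l1.

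**Figure D4:**
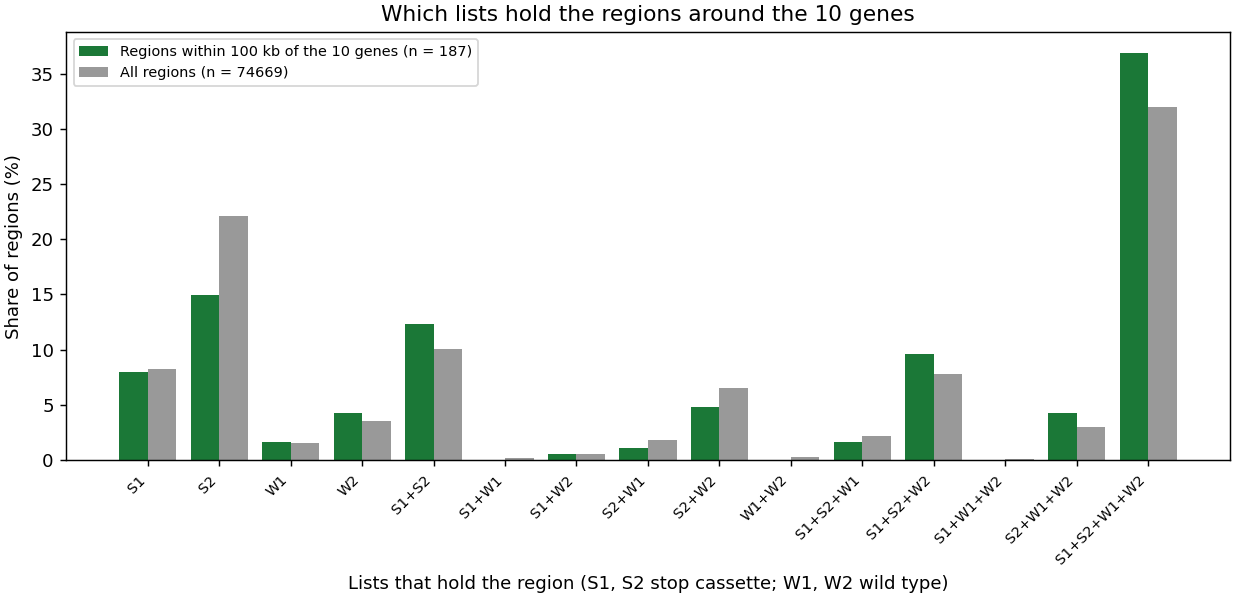
Share of regions (%, bars from 0) by the lists that hold them, for the 187 regions around the 10 genes and for all 74669 regions. S1 and S2 are the stop cassette replicates and W1 and W2 the wild-type replicates; the tallest pair is the regions in all lists, 36.9% and 32.0%.

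The 23 regions held by both stop cassette lists alone were mostly weak and far from starts. Their median percentile was 36.8 (genome 42.9), 22 of 23 lay away from any start (95.7%, genome 87.8%), and the nearest wild-type summit lay a median of 8327 bp away (568 to 34578). In the lines that follow, each pair of values is for stop cassette replicates 1 and 2, and distances are from the start of the named gene. Bmp2 had none.

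Bmp4 had one, 7.7 kb upstream (chr14:47017779-47018583; 21.6 and 61.8). Bmp7 had 6, all intergenic except one in its intron (chr2:172730502-172731005; 44.2 and 0.0153). Downstream of Bmp7 these were chr2:172598540-172599157 (21.6 and 47.8), chr2:172682530-172683089 (2.42 and 27.4) and chr2:172688570-172689139 near the start of AL845460.1 (39.7 and 8.86). Upstream they were chr2:172861884-172862386 (31.2 and 39.5) and chr2:172862876-172863377 (41.1 and 40.8). The last one lies 568 bp from a wild-type summit, beside the region of Bmp7 in all lists 97.9 kb upstream.

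Bmpr1a had one, in an intron of Mmrn2 (chr14:35214224-35214837), at 73.8 and 55.2, the highest mean of the 23. Bmpr1b had one in an intron of Unc5c (chr3:141454233-141454790; 7.55 and 57.7) and one in its own intron (chr3:141586308-141586817; 7.55 and 28.6). Nog had 2, 25.4 kb upstream (chr11:89188384-89189495; 36.8 and 47.8) and 35.6 kb upstream (chr11:89199246-89199758; 71.4 and 6.87). In several of these regions one replicate was at the bottom of its list.

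Msx1 had one, 103.8 kb downstream (chr5:38111776-38112490; 10.4 and 10.4). Msx2 had 2, 46.5 kb downstream (chr13:53521722-53522238; 36.8 and 6.87) and 41.7 kb upstream (chr13:53609890-53610821; 69.8 and 6.87). Id3 had one in an intron of E2f2 (chr4:135745617-135746197; 30.6 and 57.7) and one in an intron of Asap3 (chr4:135795506-135796517; 36.8 and 6.87).

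Id1 had 6. Nearest was an intergenic region 6.4 kb downstream (chr2:152568156-152568674; 59.3 and 30.9). Introns of Bcl2l1, which encodes a survival protein, held chr2:152593267-152593871 (41.2 and 70.4), chr2:152630025-152631036 (50.5 and 61.5) and chr2:152641980-152642518 (65.2 and 39.0). Introns of H13 held chr2:152497306-152497837 (9.86 and 9.45) and chr2:152503963-152504508 (15.4 and 9.07). The 3 in Bcl2l1 ranked above those in H13 in both stop cassette lists.

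With equal list lengths, the 23 regions were first looked up within their boundaries from the lists as deposited. Of these, 3 were still held by both stop cassette lists and no wild-type list, 13 by 1 list and 7 by none. The 3 were the Mmrn2 region near Bmpr1a and 2 of those in Bcl2l1 (chr2:152593267-152593871 and chr2:152630025-152631036). In the last of these, the summits that remained lay too far apart to merge anew into 1 region. Regions merged anew from the shortened lists numbered 144 around the 10 genes, of which 4 were held by both stop cassette lists alone (2.78%, genome 5.22%) and 4 by both wild-type lists alone (2.78%, genome 2.24%). The former were the Mmrn2 region, one 31.6 kb downstream of Id1 in Bcl2l1, and 2 downstream of Id3 (31.5 and 34.7 kb). In the lists as deposited, wild-type replicate 2 also held those of Id3. Stop cassette replicate 2 likewise held all 4 of the wild-type regions as deposited. Of the 69 regions in all lists, 48 stayed in all lists.

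The wider pathway was taken from a list of 41 other genes. A start summit was present in all lists for 28, in some lists for 7 and in none for 6. Over all protein-coding genes, 57.5% had one in all lists. By role, all lists held one for 4 of 11 further ligands (Bmp3, Bmp6, Bmp8a and Gdf6), 4 of 5 further receptors (Bmpr2, Acvr1, Acvr2a and Acvr2b), 10 of 12 antagonists, 5 of 6 Smads and 5 of 7 targets. No list held one for the ligands Bmp8b, Bmp10, Bmp15 and Gdf2, the receptor Acvrl1 and the antagonist Sost. The locus counts were higher in both stop cassette lists for 21 of 41 and lower for 0, beside 56.4% and 0.563% of protein-coding genes. The start percentile was higher for 7 of the 28 and lower for 0, beside 41.2% and 4.34%.

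The antagonist Bambi, a decoy receptor, stood at 99.1, 97.1, 94.7 and 96.6 at its start, above Nog in each list with a Nog start summit. The antagonist Grem1 stood at 46.7, 76.2, 39.5 and 62.2. The pathway genes whose start percentiles were closest to the median of the 10 genes over the 4 lists were Dlx6, Smad1 and Smad6, with root mean square differences of 4.72, 5.78 and 6.40 percentile points. Dlx6 stood at 73.1, 87.2, 59.3 and 77.1.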

How the data were processed

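The authors deposited 1 list of peak summits per library, and per the labels there were 4 libraries. Per the submitters' processing notes, Bowtie2 2.2.6, Picard and mm9 were used, and per the peak names duplicate and mitochondrial reads were removed with a mapping quality of 30. The peak caller, any shift of reads for Tn5 and any control are not given in the sources used here. The deposited value of a summit was read as −log10 of a q-value from the lowest value in each list, about 0.05 as a q-value. It depends on the depth and background of its own library, so it was used only as a mid-rank percentile within its list, except in the stricter threshold (5.83). The lists hold no reads, so the depth is unknown and no count test was possible.

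A summit was assigned to a gene within 1 kb of any GENCODE M1 start, and to its locus within 100 kb of the gene body. Summits were extended by 250 bp and merged over the lists. The extension was needed because the lists hold positions of 1 bp, and other extensions were tried. Group means were compared by exact permutation tests, two-sided (6 assignments), with Benjamini-Hochberg adjustment over 22380 genes. Counting was checked on simulated lists. Motifs were searched in 201 bp windows of the NCBIM37 reference. No summit lay beyond a chromosome end of that reference. Python 3.11.15, numpy 2.4.6, pandas 2.3.3 and scipy 1.17.1 were used.

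The genes and lists were chosen with earlier results of these data known. Named were the 10 genes, for each the region with the highest mean percentile, and each region held by both lists of 1 genotype alone. For 4 genes (Id1, Id3, Bmp4 and Nog) and Msx2, the regions nearest the starts, and all other regions given, were added after their values had been seen, as were Bambi and Grem1. Alternatives were equal list length, a stricter threshold, other distances and extensions, a reciprocal overlap, leaving out each library, and pairing by replicate number.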

Additional observations from a re-analysis of the deposited data

How the results depend on the processing

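With 2 libraries per genotype no permutation test could pass 0.05, and the unknown depth limits what an absent summit shows. At equal list length the difference in start summits turned to -4 and that in locus summits to -5.5. Regions held by the stop cassette lists alone fell to 4, those by the wild-type lists alone rose to 4, genes with a start summit in some lists numbered 1, and genes with more locus summits, or more start or locus summits, in both stop cassette lists numbered 1. Under the stricter threshold the difference in share was 0.0312, with 118 regions, 25 in all lists and 5 genes with a start summit in all lists. With bodies within 50 kb there were 120 regions, 14 of them stop cassette-only and 45 in all lists. With bodies within 200 kb there were 290 regions and a difference in share of 0.00550. With starts within 2 kb, 1 gene had a start summit in some lists. With an extension of 50 bp there were 322 regions and 2 held by the wild-type lists alone, and a reciprocal overlap of 50% also gave 2. Leaving out each library in turn gave start summit differences of 0.5 to 7.5, locus summit differences of 45.5 to 112.5 and share differences of -0.0174 to 0.00709, positive without wild-type replicate 1. It gave 162 to 185 regions, 69 to 88 in all lists, 26 to 52 stop cassette-only (52 and 40 when the first or the second stop cassette library was left out, 41 for wild-type replicate 2) and 0 to 8 wild type-only (8 when wild-type replicate 1 or stop cassette replicate 2 was left out, 3 for wild-type replicate 2). Genes with a start summit in all lists numbered 8 to 9 and in some lists 1 to 2, and those with more locus summits, or more start or locus summits, 7 to 10. With a library left out, the rules for its genotype were applied to the 1 list that remained. The causes of these changes were not tested. What libraries with the same replicate number share beyond that number is not stated. Deviations of same-numbered libraries correlated at r = 0.198 across 12860 genes, which are not independent replicates. With the replicate block the differences were 4, 79 and -0.00517 (exact sign permutation p = 0.5, 0.5 and 1). Window widths of 101 and 501 bp, added after seeing the data, gave 2 and 3 windows with the exact composite (genome 0.0377% and 0.126%). With the looser one they gave 3 and 4 (genome 0.126% and 0.482%).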
